A study of Homo sapiens with 6 samples.

Results

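Hypoxia-inducible factors (HIFs), the proteins that sense oxygen for them, a set of genes that HIFs switch on, and the transporters and enzymes of glycolysis were examined in HEY cells after an siRNA against CCNL2. The 39 genes were taken by name from the deposited count table, each name once, out of 60835 distinct gene names. They comprise 6 genes for HIF alpha subunits and oxygen sensing, 10 HIF targets outside glycolysis, and 23 genes from glucose uptake to lactate export. HEY is a long-established line of human ovarian cancer cells. The 6 RNA libraries are 3 from cells given the siRNA against CCNL2 for 48 h (siCCNL2) and 3 labelled siNC, the usual name of a control siRNA, whose time is not given separately. All cells grew in DMEM with serum and antibiotics. Both groups are the same unedited line, and no hypoxia, drug or other agent is named in the labels, so the libraries show the pathway in ordinary culture of 1 line. CCNL2 encodes cyclin L2, a partner of CDK11 kinases in transcription and splicing, and the study, by its title, concerned cisplatin resistance and ferroptosis.

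In cells with enough oxygen, prolyl hydroxylases encoded by the EGLN genes, which need iron as well as oxygen, mark HIF alpha subunits, and the VHL protein then directs them to degradation. When oxygen is short, the alpha subunits persist, pair with ARNT and bind short DNA sites with the core A or G followed by CGTG. Their targets include genes for blood vessel growth, mitophagy, collagen hydroxylation, glucose uptake, glycolysis and lactate export. Cancer cells often run glycolysis at a high rate with oxygen present. HIF activity is set mostly at the protein level, which RNA libraries do not measure.

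Total counts ran from 13596286 to 18095529 per library. The siRNA target CCNL2 stood at 261, 267 and 246 CPM (counts scaled to library size with TMM factors) in siNC replicates 1 to 3 and at 203, 182 and 186 in siCCNL2, with no overlap between the groups (log2 fold change -0.44, SE 0.044, adjusted p = 2.15e-08). The fall in CCNL2 RNA was modest, a change of -26.3%, and 18.9% of all tested genes had a larger absolute log2 fold change. Of the markers fixed for the labelled cells, PAX8 of the Müllerian lineage and the keratin genes KRT7, KRT8 and KRT18 were read well. Counts per library were lower for WT1 (96 to 151), KRT19 (36 to 67), EPCAM (23 to 53) and MUC16 (0 to 7). Summed over 8 epithelial and ovarian carcinoma markers, the authors' TPM-like value (scaled by gene length and library size) was 3032 to 3078 in siNC and 2261 to 2352 in siCCNL2. On that value PAX8, WT1, KRT7, KRT8 and KRT18 were lower in siCCNL2 without overlap, EPCAM was higher, and KRT19 and MUC16 overlapped. The mesenchymal marker VIM stood at 1680 to 1721 in siNC and 1642 to 1778 in siCCNL2. The other mesenchymal marker, CDH2, stood at 97.3 to 100 and 112 to 113. Leukocyte markers summed to 11 to 27 counts per library and erythroid markers to 0 to 4. Of 3 endothelial markers, CDH5 had 1755 to 1981 counts in siNC and 598 to 837 in siCCNL2. PECAM1 was also lower, with 33 to 44 counts in siNC and 12 to 17 in siCCNL2. VWF had 12 to 17 and 12 to 18. The part of these marker shifts in the results was not tested. The labels do not say whether the cultures behind the libraries were separate. The p-values therefore measure only how these libraries vary, and that variation may be technical. In bulk RNA, fewer cells of a type and less RNA per cell cannot be told apart.

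The RNAs of both HIF alpha subunits fell after the siRNA, as did those of the glucose transporters SLC2A1 and SLC2A3, the lactate exporter SLC16A3, NDRG1 and BNIP3, while PFKL, HK2 and, at the margin of the test, VEGFA rose. Of the 39 genes, 37 passed the filter on low counts and were tested; CA9 and ALDOC did not. A gene is called here at an adjusted p under 0.05 in edgeR's quasi-likelihood test over 15346 genes. By count, 14 of the 37 (37.8%) were called, against 33.6% of all tested genes, so the share called is near the background. Calls were 3 higher (8.11%, background 17.2%) and 11 lower (29.7%, background 16.5%). The median log2 fold change was -0.04, and 0.0 over all tested genes. The median absolute log2 fold change was 0.12, against 0.19 over all tested genes. The 2 groups did not overlap in CPM for 16 of the 37 (43.2%, background 43.9%).

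**Figure D1:**
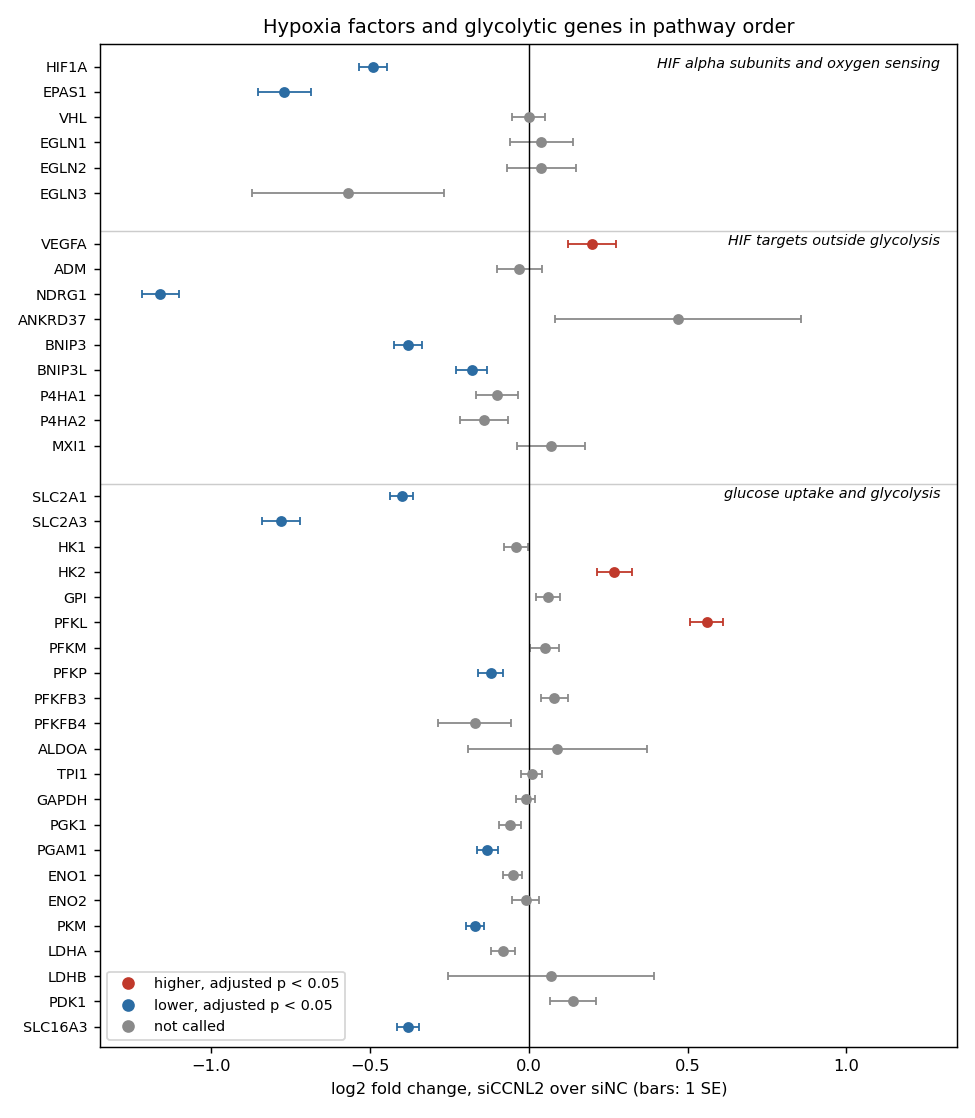
Log2 fold change (siCCNL2 over siNC, horizontal axis) of the 37 tested genes, grouped by role and in pathway order from top to bottom, with bars of 1 SE and colour for the call (red higher, blue lower, grey not called). The largest falls are NDRG1 at -1.16, SLC2A3 at -0.78 and EPAS1 at -0.77, while TPI1, GAPDH and ENO2 sit within 0.01 of 0.

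Both HIF alpha subunit genes fell, and VHL, EGLN1, EGLN2 and EGLN3 were not called. HIF1A (chromosome 14, 61695513 to 61748259, plus strand, GRCh38), which encodes the widely expressed alpha subunit, stood at 186, 184 and 174 CPM in siNC and at 136, 128 and 123 CPM in siCCNL2. The groups did not overlap, and the means were 181 ± 6.44 and 129 ± 6.25 CPM (SD, n = 3 each), a log2 fold change of -0.49 (SE 0.044, adjusted p = 3.94e-09). EPAS1 (chromosome 2, 46293667 to 46386697, plus strand) encodes the second alpha subunit, HIF2A. It stood at 32.5, 34.4 and 32.5 CPM in siNC and at 19.1, 17.2 and 22.0 CPM in siCCNL2, again without overlap, with a log2 fold change of -0.77 (SE 0.084, adjusted p = 9.28e-08). On the length-scaled TPM-like value HIF1A was the more abundant of the 2 in every library, 134 to 146 against 19.2 to 20.6 for EPAS1 in siNC and 95.6 to 107 against 9.91 to 13.1 in siCCNL2. The share of HIF1A in their sum was 87.7% ± 0.421 in siNC and 89.6% ± 1.45 in siCCNL2, with overlapping libraries (exact two-sided permutation p = 0.2, adjusted 0.333 over 15 isozyme shares).

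VHL (chromosome 3, 10141778 to 10153667), the substrate receptor of the ligase that marks hydroxylated HIF alpha, stood at 62.1, 66.7 and 63.7 CPM in siNC and at 64.3, 64.9 and 62.7 in siCCNL2 (log2 fold change 0.0, SE 0.052, adjusted p = 0.96). The groups overlapped. EGLN1, the main HIF prolyl hydroxylase, ran from 15.8 to 17.5 CPM in siNC and from 14.9 to 18.2 in siCCNL2 (log2 fold change 0.04, adjusted p = 0.817). EGLN2, a nuclear member of the family, ran from 12 to 14.9 and from 13.0 to 14.3 CPM (0.04, adjusted p = 0.817). EGLN3, whose own transcription is induced by HIF, had 29 to 30 counts per siNC library and 18 to 21 per siCCNL2 library. Its CPM did not overlap, at 1.77, 1.90 and 1.82 against 0.987, 1.42 and 1.34, yet with so few counts the log2 fold change of -0.57 had an SE of 0.303 and was not called (adjusted p = 0.162). The EGLN2 level is uncertain: in GENCODE 29, exons of the readthrough gene RAB4B-EGLN2 on the same strand hold 93.4% of its coding bases, and RAB4B-EGLN2 is listed at 0 in all 6 libraries. Shares among the 3 EGLN genes are not described for that reason.

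The DNA before 1 start of each of 4 genes called below is shown, as examples of the HIF core letters. The genes went both ways, BNIP3 and SLC16A3 lower and PFKL and HK2 higher. Sequences are from RefSeq (GRCh38.p14), 5′ to 3′ on the gene's strand, and lie before 1 annotated start of each gene, outside GENCODE 29 exons. For SLC16A3 and HK2 this start is internal, and the stretch lies between the deposited ends of the gene. Capitals mark ACGTG or GCGTG on either strand (read as CACGT or CACGC on the other strand, which overlap where the letters are CACGTG). The stretches are chr10:131982014-131982173 on the minus strand for BNIP3 and, all on the plus strand, chr17:82228792-82229031 for SLC16A3, chr21:44299803-44300050 for PFKL and chr2:74834920-74835169 for HK2.
BNIP3: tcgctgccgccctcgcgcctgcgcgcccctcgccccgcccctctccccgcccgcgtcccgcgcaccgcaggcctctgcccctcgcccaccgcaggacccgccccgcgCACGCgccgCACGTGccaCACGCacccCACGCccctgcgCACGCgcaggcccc
SLC16A3: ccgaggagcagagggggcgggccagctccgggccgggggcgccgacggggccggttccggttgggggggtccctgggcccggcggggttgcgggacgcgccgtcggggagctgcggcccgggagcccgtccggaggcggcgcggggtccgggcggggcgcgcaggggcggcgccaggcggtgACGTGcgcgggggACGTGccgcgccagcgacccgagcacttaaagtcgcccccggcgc
PFKL: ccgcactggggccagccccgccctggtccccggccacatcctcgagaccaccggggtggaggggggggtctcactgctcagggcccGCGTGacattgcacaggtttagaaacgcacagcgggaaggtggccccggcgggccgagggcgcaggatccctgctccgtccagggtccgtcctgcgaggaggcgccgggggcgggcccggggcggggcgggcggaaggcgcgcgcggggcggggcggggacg
HK2: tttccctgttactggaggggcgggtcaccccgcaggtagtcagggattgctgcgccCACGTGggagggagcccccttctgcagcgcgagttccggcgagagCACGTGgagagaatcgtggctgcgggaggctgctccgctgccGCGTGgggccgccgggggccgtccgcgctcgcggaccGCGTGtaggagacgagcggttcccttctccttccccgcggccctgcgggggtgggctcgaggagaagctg
In the window from 250 bases before to 50 after a start, BNIP3 has matches that begin between positions -143 and -104, counted from the start. SLC16A3 has matches at -68 and -55. PFKL has 1, at -164, and HK2 has matches from -194 to -70. RefSeq windows were found for 34 of the 39 genes, 64 windows in all because some genes have several starts, and 42 of these windows (65.6%) held ACGTG or GCGTG. At least 1 window held them for 31 of the 34 genes, so the letters do not set these 4 apart, and 2 of the 5 windows of SLC16A3 held neither. The share over all 35116 windows of that length was 48.4%. That share is per window, and no share per gene was computed to set beside 31 of 34. Windows of 1 gene can overlap, and the letters are a description, not evidence of binding. No entry was found for VHL, VEGFA, NDRG1, BNIP3L and SLC2A3.

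Among HIF targets outside glycolysis, 3 fell, 1 rose, 5 were not called and 1 was not tested, with NDRG1 and the BNIP3 pair lower. Of the 9 tested, 44.4% were called (11.1% higher and 33.3% lower, background 17.2% and 16.5%). NDRG1 (chromosome 8, 133237175 to 133302022, minus strand), a stress- and hypoxia-induced gene linked to growth arrest and differentiation, had the largest change of all 37. It stood at 63.6, 61.5 and 63.6 CPM in siNC and at 28.0, 28.0 and 28.2 in siCCNL2, a log2 fold change of -1.16 (SE 0.058, adjusted p = 1.63e-13). The libraries of each group were tight and far apart, and 1.55% of all tested genes had a larger absolute change. BNIP3 (chromosome 10, 131967684 to 131981967, minus strand), a mitochondrial receptor for mitophagy, stood at 129, 124 and 131 CPM in siNC and at 96.5, 99.3 and 100 in siCCNL2 (log2 fold change -0.38, SE 0.044, adjusted p = 2.87e-07). Its paralogue BNIP3L, which does the same work and is known for clearing mitochondria from maturing red cells, fell too. BNIP3L stood at 87.6, 81.8 and 86.6 CPM in siNC and at 77.0, 75.1 and 73.0 in siCCNL2 (log2 fold change -0.18, SE 0.050, adjusted p = 0.00527). The share of BNIP3 in the summed TPM-like value of the pair was 62.4%, 63.1% and 62.9% in siNC and 58.5%, 59.8% and 60.7% in siCCNL2. These shares did not overlap (exact two-sided permutation p = 0.1, the smallest that 3 against 3 libraries can give, adjusted 0.214). BNIP3L shares 7.7% of its exon bases with PNMA2 on the opposite strand, which fell as well (log2 fold change -0.93).

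VEGFA (chromosome 6, 43770184 to 43786487), the growth factor for blood vessels and a classic HIF target, went the other way. It stood at 25.0, 25.0 and 23.1 CPM in siNC and at 29.4, 27.7 and 26.5 in siCCNL2, without overlap (log2 fold change 0.20, SE 0.076, adjusted p = 0.0484). This call is marginal: 5 of 17 alternatives made it, and the adjusted p went up to 0.302. It was lost without siNC replicate 1 (0.0661), 2 (0.07) or 3 (0.16) and without siCCNL2 replicate 1 (0.183) or 2 (0.0754). CA9, the cell-surface carbonic anhydrase widely used as a hypoxia marker, had 0 counts in all 6 libraries, where 3 counts would be 0.165 to 0.224 CPM. Counting error allows levels up to that limit in each library. Of its exon bases, 38.5% are shared with ARHGEF39 on the opposite strand (130 to 193 counts per library), and with strand use unknown the limit does not cover reads lost to that overlap.

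The remaining targets did not separate the groups by the test. ADM, the vasodilator peptide adrenomedullin, ran from 29.4 to 33.2 CPM in siNC and from 29.2 to 31.0 in siCCNL2 (log2 fold change -0.03, adjusted p = 0.805). P4HA1 and P4HA2, catalytic subunits of the collagen prolyl hydroxylase, had log2 fold changes of -0.10 (adjusted p = 0.26) and -0.14 (0.186). Without siCCNL2 replicate 2, P4HA1 was called lower (-0.17, adjusted p = 0.0475): that library stood at 56.1 CPM against 49.1 and 46.4 in the other siCCNL2 libraries. MXI1, a MAX partner that opposes MYC, ran from 16.6 to 21.6 and from 17.1 to 23.0 CPM (0.07, adjusted p = 0.659). ANKRD37, a small ankyrin repeat protein gene and direct HIF target, had 10 to 14 counts per siNC library and 13 to 17 per siCCNL2 library (0.47, SE 0.387, adjusted p = 0.379). ANKRD37 also shares 35.2% of its exon bases with UFSP2 on the opposite strand, which was not called (log2 fold change -0.02).

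**Figure D2:**
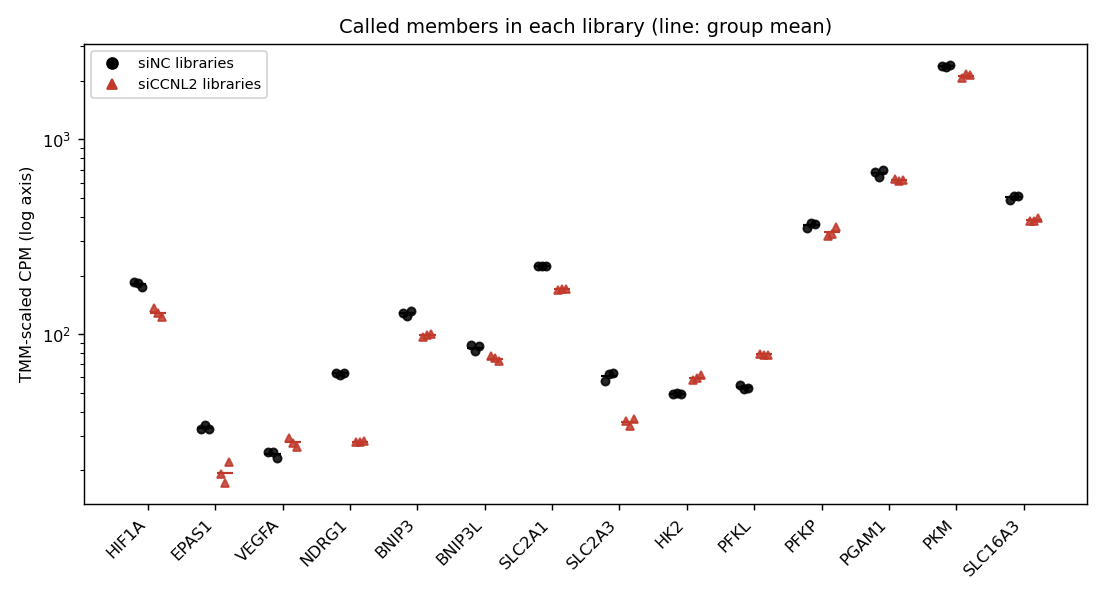
TMM-scaled CPM (vertical log axis) of the 14 called genes in each of the 3 siNC (black circles) and 3 siCCNL2 (red triangles) libraries, with a line at each group mean. The groups are apart for 13 of these 14 genes, which were picked by the same comparison, so the count adds no support. PFKP is the exception, where siCCNL2 replicate 3 at 354 CPM lies above siNC replicate 1 at 351.

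Of the 22 tested genes from glucose uptake to lactate export, 8 were called (36.4%, against 33.6% of all tested genes), near the background. By direction, 9.09% were higher and 27.3% lower (background 17.2% and 16.5%). The transporter genes SLC2A1, SLC2A3 and SLC16A3, at the entry and exit of glycolysis, fell. Of other transporter genes tested, SLC2A6 was called lower, while SLC16A1 (log2 fold change -0.08, adjusted p = 0.126), SLC2A8 (-0.08, 0.667) and SLC2A12 (-0.37, 0.0556) were not called. SLC2A1 (chromosome 1, 42925353 to 42958893, minus strand) encodes GLUT1, the glucose transporter of most proliferating cells. It stood at 225, 223 and 224 CPM in siNC and at 169, 170 and 170 in siCCNL2, with no overlap and very little spread (log2 fold change -0.40, SE 0.037, adjusted p = 7.43e-09). SLC2A3 (chromosome 12, 7919230 to 7936187, minus strand), which encodes the high-affinity glucose transporter GLUT3, fell from 57.8, 62.2 and 63.6 CPM to 35.7, 33.9 and 36.8 (log2 fold change -0.78, SE 0.060, adjusted p = 2.72e-10). The groups were again apart. The share of SLC2A1 in their summed TPM-like value was 82.7% ± 0.75 in siNC and 86.2% ± 0.477 in siCCNL2 (exact two-sided permutation p = 0.1, adjusted 0.214). At the other end, SLC16A3 (chromosome 17, 82217934 to 82261129, plus strand) encodes MCT4, which exports lactate from glycolytic cells. Its 491, 511 and 510 CPM in siNC compared with 383, 382 and 395 in siCCNL2 (log2 fold change -0.38, SE 0.034, adjusted p = 2.96e-09). CSNK1D, which overlaps SLC16A3 on the opposite strand and shares 5.4% of its exon bases, was not called (log2 fold change -0.11, adjusted p = 0.0581).

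At hexokinase, which traps glucose in the cell, HK2 rose and HK1 was not called. HK2, the inducible form found in many tumours (chromosome 2, 74834127 to 74893359, plus strand), rose from 49.6, 49.7 and 49.2 CPM to 58.0, 59.8 and 61.5, with no overlap (log2 fold change 0.27, SE 0.054, adjusted p = 3.43e-04). HK1, the housekeeping form, stood at 295 to 319 CPM in siNC and 288 to 309 in siCCNL2 (-0.04, adjusted p = 0.513). HK1 was the more abundant by TPM-like value, with 89.8% ± 0.418 of the pair in siNC and 87.6% ± 0.215 in siCCNL2 (exact two-sided permutation p = 0.1, adjusted 0.214). GPI, the isomerase that follows, was not called (0.06, adjusted p = 0.267).

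Phosphofructokinase, the first committed step, had 1 isoform called higher, 1 called lower and 1 not called. PFKL, the liver-type subunit (chromosome 21, 44300051 to 44327376, plus strand), had the largest rise of the called genes. It stood at 55.1, 52.4 and 53.1 CPM in siNC and at 79.6, 78.2 and 78.6 in siCCNL2 (log2 fold change 0.56, SE 0.051, adjusted p = 5.37e-09). PFKM, the muscle-type subunit, ran from 130 to 138 and from 135 to 148 CPM and was not called (0.05, adjusted p = 0.423). PFKP, the platelet-type subunit, ran from 351 to 371 CPM in siNC and from 318 to 354 in siCCNL2, with an overlap, and was called lower (-0.12, SE 0.040, adjusted p = 0.0196). PFKP was no longer called without siNC replicate 2 (adjusted p = 0.104) or 3 (0.0519), without siCCNL2 replicate 1 (0.112) or 2 (0.0715), and on log2 of the TPM-like value plus 1 (0.0559). As shares of their summed TPM-like value, PFKP went from 70.4% ± 0.176 to 66.1% ± 0.538, PFKL from 5.66% ± 0.303 to 8.53% ± 0.446 and PFKM from 23.9% ± 0.165 to 25.3% ± 0.226. None of these shares overlapped between groups (exact two-sided permutation p = 0.1 each, adjusted 0.214), and PFKP was the main isoform in every library. The bifunctional enzymes that make and break the sugar bisphosphate activating this step were not called. The log2 fold change was 0.08 for PFKFB3, the form that favours its synthesis (adjusted p = 0.162), and -0.17 for PFKFB4 (0.283).

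**Figure D3:**
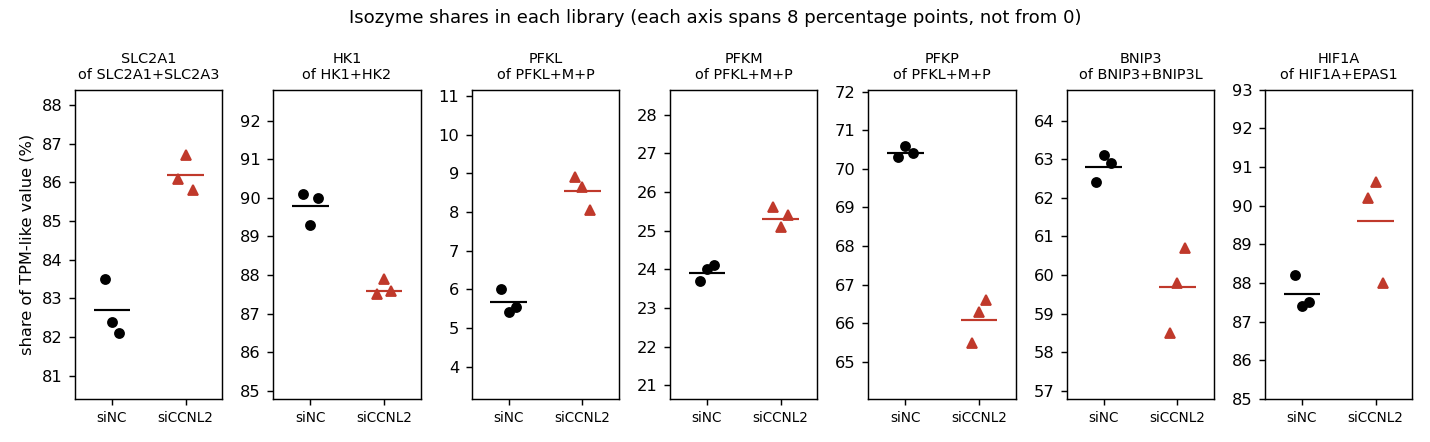
Share of 1 isozyme in the summed TPM-like value of its family (vertical axes, percent, each spanning 8 percentage points and not starting at 0) in the 3 siNC (black circles) and 3 siCCNL2 (red triangles) libraries, with lines at group means. The PFKL share lies at 5.42% to 6.0% in siNC and at 8.04% to 8.91% in siCCNL2, while HIF1A shares overlap.

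From aldolase to lactate, the abundant enzymes GAPDH, TPI1, PGK1, PGAM1, ENO1, PKM and LDHA had log2 fold changes between -0.17 and 0.01. Of these, PGAM1 and PKM were called. GAPDH, the dehydrogenase often used as a reference gene, stood at 3762, 3733 and 3844 CPM in siNC and at 3706, 3890 and 3646 in siCCNL2 (log2 fold change -0.01, SE 0.029, adjusted p = 0.783). TPI1, triose phosphate isomerase, had 0.01 (adjusted p = 0.909), ENO2, the neuron-type enolase, -0.01 (0.932), PGK1, phosphoglycerate kinase, -0.06 (0.162) and ENO1, the main enolase, -0.05 (0.222). PGAM1, phosphoglycerate mutase (chromosome 10, 97426191 to 97433444), was called lower at 682, 642 and 697 against 623, 608 and 616 CPM (-0.13, SE 0.034, adjusted p = 0.00466). PKM, pyruvate kinase (chromosome 15, 72199029 to 72231819, minus strand), was called lower at 2381, 2344 and 2409 against 2068, 2156 and 2136 CPM (-0.17, SE 0.029, adjusted p = 6.41e-05). Both falls were without overlap, and gene-level counts do not separate the PKM splice forms M1 and M2.

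LDHA, the lactate dehydrogenase subunit that favours lactate formation (chromosome 11, 18394560 to 18408425), stood at 1522, 1463 and 1563 CPM in siNC and at 1341, 1522 and 1436 in siCCNL2. The groups overlapped and LDHA was not called (log2 fold change -0.08, SE 0.038, adjusted p = 0.1). A call as lower was made without siCCNL2 replicate 2 (-0.12, adjusted p = 0.00856) and, narrowly, under other scalings or without a count filter (0.037 to 0.0436). PDK1, a kinase that inhibits pyruvate dehydrogenase and a direct HIF target, stood at 25.9, 25.2 and 24.5 CPM in siNC and at 27.7 in each siCCNL2 library. Its groups did not overlap but it was not called (0.14, SE 0.072, adjusted p = 0.158).

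The counts of ALDOA and LDHB were very low, and most coding bases of both genes lie in another gene's exons. ALDOA, the main aldolase outside liver and brain, had 25 to 36 counts per siNC library and 25 to 38 per siCCNL2 library, beside 59087 to 63705 for GAPDH in siNC. LDHB, the heart-type lactate dehydrogenase subunit, had 17 to 25 and 16 to 25. In GENCODE 29, exons of AC093512.2 on the same strand hold 93.8% of the coding bases of ALDOA, and exons of AC010197.2 hold 93.5% of those of LDHB. In the count table AC093512.2 had 8 to 21 counts per library and AC010197.2 had 0. With EGLN2 these are the 3 genes of the 39 whose coding bases lie mostly in another gene's exons on the same strand, since the next highest share was 10.3%, in GPI. The annotation and the rule for reads that fall in 2 genes are not given in the sources used here, and the part of the overlap in these low counts was not tested. With so few counts the log2 fold changes of 0.09 for ALDOA (SE 0.282) and 0.07 for LDHB (SE 0.323) were imprecise, and neither was called. ALDOC, the brain aldolase, had 4 to 11 counts per library and was not tested.

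**Figure D4:**
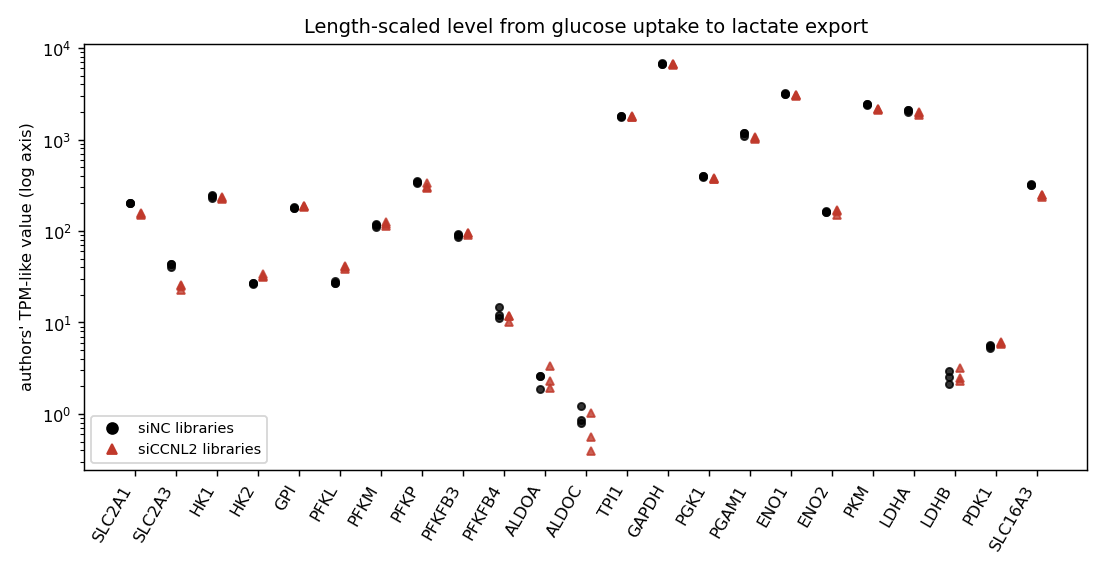
The authors' TPM-like value (vertical log axis) in each library for the 23 genes from glucose uptake to lactate export, in pathway order, with siNC as black circles and siCCNL2 as red triangles. GAPDH is highest at 6497 to 6807, and ALDOA, ALDOC and LDHB lie below 4 in all 6 libraries.

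Per length, GAPDH, ENO1, PKM, LDHA, TPI1 and PGAM1 led the pathway, with mean TPM-like values in siNC of 6760, 3161, 2425, 2081, 1790 and 1150. Summed over all 39 genes, the TPM-like value was 19914 to 20364 in siNC (1.99% to 2.04% of all) and 19049 to 19223 in siCCNL2 (1.9% to 1.92%). Most of that sum, 17503 to 17961 in siNC and 16890 to 17147 in siCCNL2, came from GAPDH, TPI1, ENO1, PKM, LDHA, PGK1 and PGAM1. No test was made of these sums. Processed pseudogenes of several enzymes can share reads with them. Rows named as pseudogenes held at most 2.02% of the parent's counts (TPI1) among tested glycolytic enzymes other than LDHB, where they held 19.2%, and 3.4% for EGLN3. Adding them to the parents changed no call.

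Other genes of the pathway, from 4 lists, moved both ways. The lists were chosen with earlier results of these data known, so the shares called describe the lists and are not evidence of an excess. Among 12 tested HIF pathway genes, 1 was called higher and 5 lower, which is 50% called (8.33% higher and 41.7% lower) against 33.6% (17.2% and 16.5%) of all tested genes. SIAH2, a ligase that targets prolyl hydroxylases, rose from 29.6 ± 1.09 to 36.6 ± 1.79 CPM (log2 fold change 0.30, adjusted p = 0.00108). CITED2, which competes with HIF for its coactivators, fell from 151 ± 3.17 to 116 ± 3.66 CPM (-0.39, adjusted p = 9.64e-08), and HIF1AN, the asparagine hydroxylase that inhibits HIF, from 115 ± 3.41 to 99.4 ± 2.69 (-0.22, adjusted p = 5.32e-04). RBX1, the ring subunit of the VHL ligase, was called lower (-0.20, adjusted p = 0.0116), but not without siNC replicate 2 (0.0555) or siCCNL2 replicate 3 (0.0613). Without siCCNL2 replicate 3 this list had 3 calls in place of 6. In that fit 2147 of 15869 tested genes were called higher and 2032 lower, against 2634 and 2525 of 15346 in the main fit.

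Among 25 other HIF targets, all tested, 5 were called higher and 10 lower, with a median log2 fold change of -0.11. That is 60% called (20% higher and 40% lower), against 33.6% (17.2% and 16.5%) of all tested genes. This list too was chosen with earlier results known, and an excess was not tested. ERO1A, the oxidase of protein folding, rose from 124 ± 2.36 to 226 ± 10.1 CPM (0.87, adjusted p = 7.82e-14). LOX, the collagen crosslinker, rose from 63.0 ± 1.36 to 105 ± 5.32 CPM (0.74, adjusted p = 4.2e-11), and PPP1R3C, a glycogen-targeting phosphatase subunit, from 4.41 ± 0.489 to 6.57 ± 0.645 CPM (0.57, adjusted p = 0.0073). Lower were PLOD2, the collagen lysyl hydroxylase, at 643 ± 23.4 against 366 ± 7.83 CPM (-0.81, adjusted p = 1.13e-14), and the repressor gene BHLHE40 (-0.67, adjusted p = 7.1e-10).

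Of 16 tested genes for other steps of glucose metabolism, 2 were called higher and 5 lower, or 43.8% called (12.5% and 31.2%, background 17.2% and 16.5%). PCK2, the mitochondrial enzyme that makes phosphoenolpyruvate, rose from 13.8 ± 0.343 to 24.3 ± 2.36 CPM (0.82, adjusted p = 1.6e-07), and G6PC3, a glucose phosphatase, rose as well (0.21, adjusted p = 0.00535). BPGM, bisphosphoglycerate mutase (-0.46, adjusted p = 0.0059), and the transporter gene SLC2A6 (-0.38, adjusted p = 0.00297) fell. The muscle enolase gene ENO3 was at the threshold (-0.38, adjusted p = 0.0497), and was not called without any 1 of siNC replicates 1 to 3 (0.0922, 0.123 and 0.0924) or siCCNL2 replicates 2 and 3 (0.157 and 0.25). Among 15 tested genes for the fate of pyruvate, 1 was called higher and 2 lower, so that 20% were called, below the background of 33.6%. PDP2, a phosphatase that reactivates pyruvate dehydrogenase, fell from 39.6 ± 4.65 to 24.4 ± 1.06 CPM (-0.70, adjusted p = 1.86e-07), and PDHX, a structural subunit of that complex, fell too (-0.21, adjusted p = 0.00399). PC, pyruvate carboxylase, was called higher (0.24, adjusted p = 0.0235), but not without siNC replicate 2 (0.0552), siNC replicate 3 (0.0777) or siCCNL2 replicate 1 (0.0909).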

How the data were processed

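RNA of 6 HEY libraries, 3 per group, was compared. Per the submitters' processing notes, fastp 0.23.0, HISAT2, HTSeq 2.0.1 and GRCh38 were used, with no role or order. The authors deposited raw read counts for each gene and a TPM-like score scaled by gene length and library size. Strand use, annotation and siRNA sequences are not given in the sources used here. Reads in exon bases that genes share on opposite strands therefore cannot be told apart.

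Genes kept by filterByExpr (15346) were tested with edgeR 4.0.16 in R 4.3.3 (TMM factors, quasi-likelihood test, no covariates) and Benjamini-Hochberg adjustment over all of them. Fold changes are siCCNL2 over siNC, and the SE is the log2 fold change over the square root of F. CPM are TMM-scaled. Isozyme shares were compared with exact permutation tests. The fit was tested on simulated data. Alternatives used DESeq2 1.42.0 and limma 3.58.1 (log2 of the score plus 1 or 0.1), other scalings and filters, a replicate block and each library left out.

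Every one of the 39 genes is accounted for, with values in every library for called genes whose groups did not overlap and for 10 listed by name whatever their result. From each list of other pathway genes, up to 3 called genes per direction with the largest changes and at least 5 CPM in the higher group are named. A gene that this rule names is not reported here. The genes and lists were chosen with earlier results of these data known. Exon overlaps are from GENCODE 29, found for all 39 genes, 16 of them with the same ends as in the deposited table.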

Additional observations from a re-analysis of the deposited data

How the results depend on the processing

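Each tested gene was refitted under up to 17 alternatives. Of the 14 called genes, 12 were called in the same direction in all of them, and VEGFA and PFKP were not. The number of calls ran from 12 to 14, and was 13 by the DESeq2 Wald test and by limma-voom. With the replicate number as a block (replicate block) it was 14, as without it. Libraries with the same number correlated at 0.043, 0.023 and 0.026 in their deviations from the group means, too weakly to pair them, although each correlated best with its own number. Calls over all 15346 tested genes also moved, from 2634 higher and 2525 lower in the main fit to 2157 and 2092 by the DESeq2 Wald test. They were 2599 and 2502 by limma-voom. At an adjusted p under 0.01, 12 of the 37 genes were called, and the share of all tested genes at that threshold is not given here. The sign of the log2 fold change turned in 10 genes, none of them called. TPI1 turned to -0.01 with upper-quartile factors and to 0.0 (below 0 before rounding) on the log2 score with a pseudocount of 1 or 0.1. With 1 library left out, values ran from -0.02 to 0.04 for TPI1, -0.03 to 0.03 for VHL, -0.01 to 0.13 for EGLN1, -0.02 to 0.14 for EGLN2, -0.06 to 0.03 for ADM and -0.04 to 0.19 for MXI1. They ran from -0.16 to 0.25 for ALDOA, -0.04 to 0.01 for GAPDH, -0.03 to 0.03 for ENO2 and -0.08 to 0.19 for LDHB. Calls among other HIF pathway genes ran from 3 to 7 with 1 library left out and were 9 with upper-quartile factors. With 1 library left out, 2147 to 2492 of all tested genes were called higher and 2032 to 2276 lower, of 15793 to 15908 tested. With upper-quartile factors 2368 were higher and 2783 lower, of 15346. The cause of the range in this list was not tested. Counts in place of the length-scaled value moved 5 isozyme shares by more than the spread between libraries, PFKL to a difference of 4.6 percentage points and PFKP to -5.44, with no change of direction. EGLN3, ANKRD37, ALDOA, LDHB, ALDOC and CA9 had under 50 counts per library, which limits their precision, and for ALDOA and LDHB the part of exon overlap in the low counts was not tested.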

Other observations

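HIF1A-AS3, a gene that overlaps the body of HIF1A on the opposite strand but shares no exon bases with it in GENCODE 29, was higher in siCCNL2 while HIF1A was lower. It stood at 5.32, 4.55 and 5.33 CPM in siNC and at 9.27, 8.5 and 7.44 CPM in siCCNL2, without overlap (log2 fold change 0.73, SE 0.147, adjusted p = 3.69e-04). No source used here gives the annotation or strand use behind the counts, so whether the exons of HIF1A and HIF1A-AS3 overlap in that annotation is not known. AL162274.1, which overlaps the body of BNIP3 on the opposite strand, fell with it, from 2.17 to 0.976 CPM (log2 fold change -1.13, adjusted p = 0.00951). It had only 8 to 44 counts per library, and BNIP3 shares no exon bases with another gene in GENCODE 29. These neighbours were chosen for mention after their values were seen.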
